A study of Mus musculus with 8 samples.

Results

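The Krüppel-like factor genes Klf2, Klf3, Klf5, Klf6, Klf7, Klf9, Klf10, Klf11 and Klf13 were followed through the first 8 days of induced reprogramming of mouse fibroblasts. They were chosen by symbol, with earlier results of these data known, from the family without Klf4, which is one of the induced factors. They are 9 of the 32108 genes in the table and 9 of its 17 Klf genes. All 9 passed the filter on low values, which 15358 genes passed. Klf8, Klf12 and Klf16 passed it too but are not among the 9. Klf8 and Klf12 rose and Klf16 fell, so counts over the 9 do not stand for the family. The cells were mouse embryonic fibroblasts (MEFs) of the strain 4F2A, homozygous and, per the labels, from male embryos at 13.5 dpc. Fibroblasts of this strain carry a doxycycline-inducible cassette that encodes Oct4, Sox2, Klf4 and c-Myc. All groups received 2 µg/mL doxycycline from D0, with LIF at 1000 U/mL in a medium based on KnockOut serum replacement, and they differ in the day of harvest, D2, D4, D6 or D8, with 2 libraries a day and 8 in all. Every title carries the tag Ctr, and no group without doxycycline was analysed here, so each change lies between days of induction. Separate cultures or embryos are not named for the 2 libraries of a day, and the spread that the p-values rest on may therefore be technical.

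Krüppel-like factors are transcription factors that bind GC-rich and CACCC elements through zinc fingers at the C-terminal end, and their N-terminal parts recruit activators or repressors. Several of them (Klf3, Klf8 and Klf12) bind the corepressor CtBP, and another group (Klf9, Klf10, Klf11, Klf13 and Klf16) binds Sin3. In mouse embryonic stem cells Klf2, Klf4 and Klf5 overlap in maintaining self-renewal, and Klf2 and Klf5 have been used in place of Klf4 in mouse reprogramming. In fibroblasts Klf6 and Klf10 are known as genes that respond to injury and to TGF-beta.

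The libraries held 19409936 to 20161021 counted reads, deposited as CPM, reads scaled to a library total of 1000000, so that a gene without reads could lie as high as 0.149 to 0.155 CPM (3 reads). All 10 fibroblast markers were above 1 CPM on every day, with a summed level of 21626 to 21842 CPM in D2, 37846 to 41507 CPM in D4, 29159 to 32666 CPM in D6 and 28816 to 32053 CPM in D8. The libraries went against the label of male embryos. Xist stood at 702 to 1238 CPM, and none of 4 Y-linked genes looked at was above 0.333 CPM in any library. This holds for all 8 libraries, so no result could be given without them.

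Promoter sequences were matched for 7 of the 9 genes, all but Klf5 and Klf10. The 250 bases before the RefSeq start on GRCm38.p6 are shown for Klf6 and Klf9, the genes that lost about the same share of their level by D4, for Klf2, which fell later, and for Klf3, the gene that rose. Capitals mark the CACCC box, the element that the family itself binds, searched as CCACCC on both strands, where the other strand reads GGGTGG.
Klf6 (chr13:5861239-5861488, plus strand): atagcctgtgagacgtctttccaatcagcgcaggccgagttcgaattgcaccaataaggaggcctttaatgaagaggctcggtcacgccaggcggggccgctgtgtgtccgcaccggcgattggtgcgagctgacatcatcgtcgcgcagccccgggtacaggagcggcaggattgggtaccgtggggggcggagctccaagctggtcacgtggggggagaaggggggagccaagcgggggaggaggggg
Klf9 (chr19:23140976-23141225, plus strand): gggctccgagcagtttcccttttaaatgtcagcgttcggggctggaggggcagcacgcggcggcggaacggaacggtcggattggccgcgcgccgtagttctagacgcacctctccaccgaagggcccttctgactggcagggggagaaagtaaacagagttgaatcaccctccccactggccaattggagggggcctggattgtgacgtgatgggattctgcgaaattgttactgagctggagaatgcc
Klf2 (chr8:72318812-72319061, plus strand): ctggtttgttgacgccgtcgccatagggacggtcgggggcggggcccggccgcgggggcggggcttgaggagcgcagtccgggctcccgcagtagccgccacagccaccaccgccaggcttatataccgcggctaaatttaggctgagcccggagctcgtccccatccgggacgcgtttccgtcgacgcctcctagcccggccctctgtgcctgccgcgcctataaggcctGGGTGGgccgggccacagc
Klf3 (chr5:64803271-64803520, plus strand): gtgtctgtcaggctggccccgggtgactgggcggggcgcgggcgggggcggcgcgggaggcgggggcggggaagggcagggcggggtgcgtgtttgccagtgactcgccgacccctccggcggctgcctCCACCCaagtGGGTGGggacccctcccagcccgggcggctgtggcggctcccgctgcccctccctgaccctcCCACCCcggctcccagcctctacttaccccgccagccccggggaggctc
The Klf3 window held 3 CACCC boxes, beginning 121, 111 and 49 bases before the RefSeq start, and the Klf2 window held 1, beginning 19 bases before it. The starts of RefSeq and GENCODE M21 differ for these genes. In GENCODE M21 the genes begin at 64803388 for Klf3 and 72319033 for Klf2, so all of these boxes lie inside them. The Klf7 window lies wholly inside its GENCODE gene, and the Klf6 and Klf11 windows reach into theirs. The Klf6 and Klf9 windows held 0 matches to CCACCC. Of the windows not shown, Klf7 had 3, Klf13 had 1 and Klf11 had 0. Of all 32851 RefSeq windows of this length, 28.1% held at least 1 such box and 7.06% held 2 or more. GC boxes (GGGCGG, both strands) numbered 6 in Klf3, 4 in Klf11, 3 in Klf13, 2 in Klf2, 1 each in Klf6 and Klf7 and 0 in Klf9, and 32.7% of all windows held at least 1. The boxes of the 2 kinds shared no base except in Klf13, where 2 bases belonged to both. The Klf9 window held 1 match to TGANTCA, a loosened form of the AP-1 site that admits any middle base, 89 bases before the start. The match reads tgaatca, and the pattern was found in 6.75% of all windows. The Klf6 and Klf11 windows held 1 E-box (CACGTG) each, found in 6.02%. Searches on both strands for a TATA box (TATAAA) and a cyclic AMP response element (TGACGTCA) found 0 matches in the 7 windows. Of all windows, 12.4% and 1.55% held them. A serum response element was searched only as 1 fixed sequence, without its looser forms, and also had 0 matches. That sequence was found in 20 of all 32851 windows (0.0609%). It is too rare for its absence from 7 windows to show whether they hold such an element. The matches above describe the letters of the windows and not binding.

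The genes lie apart in the genome (mm10, GENCODE M21). Klf2 is at chr8:72319033-72321656, Klf3 at chr5:64803388-64832901, Klf5 at chr14:99298691-99315036, Klf6 at chr13:5861482-5870394, Klf9 at chr19:23141226-23168134 and Klf11 at chr12:24651274-24662789, all on the plus strand. Klf7 is at chr1:64029447-64122282, Klf10 at chr15:38291463-38300706 and Klf13 at chr7:63886351-63938915, on the minus strand. The values count reads per gene and do not separate exons or transcripts.

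Between D2 and D8 most of the 9 genes fell and 1 rose. In D8 against D2, 7 of the 9 were lower and 1 was higher (limma, Benjamini-Hochberg adjusted p under 0.05 over all tested genes), where 70.4% of all tested genes were called, 23.1% lower and 47.3% higher. The libraries of the 2 days did not overlap for 9 of the 9, where 85.7% of all tested genes did not. The split over all genes depended on the scaling, with 34.3% lower and 35.5% higher after median-of-ratios scaling and 38.3% lower and 31.4% higher after quantile normalization, and of the 9 genes 8 were then lower and 1 higher. The median change of the 9 genes was -0.39 on the log2(CPM + 1) scale, against 0.17 over all tested genes. Klf5 and Klf2 fell the furthest, Klf6 and Klf9 followed, Klf13, Klf7 and Klf10 changed by less, and Klf3 was the gene that rose. For Klf11, the change over the whole span was -0.12 (95% interval -0.29 to 0.05, adjusted p = 0.2). The libraries are of bulk RNA, in which fewer cells with a transcript and less transcript per cell cannot be told apart. Any difference between days was called by the F test for 8 of the 9, all but Klf11 (adjusted p = 0.072), where 80.4% of all tested genes were called.

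**Figure D1:**
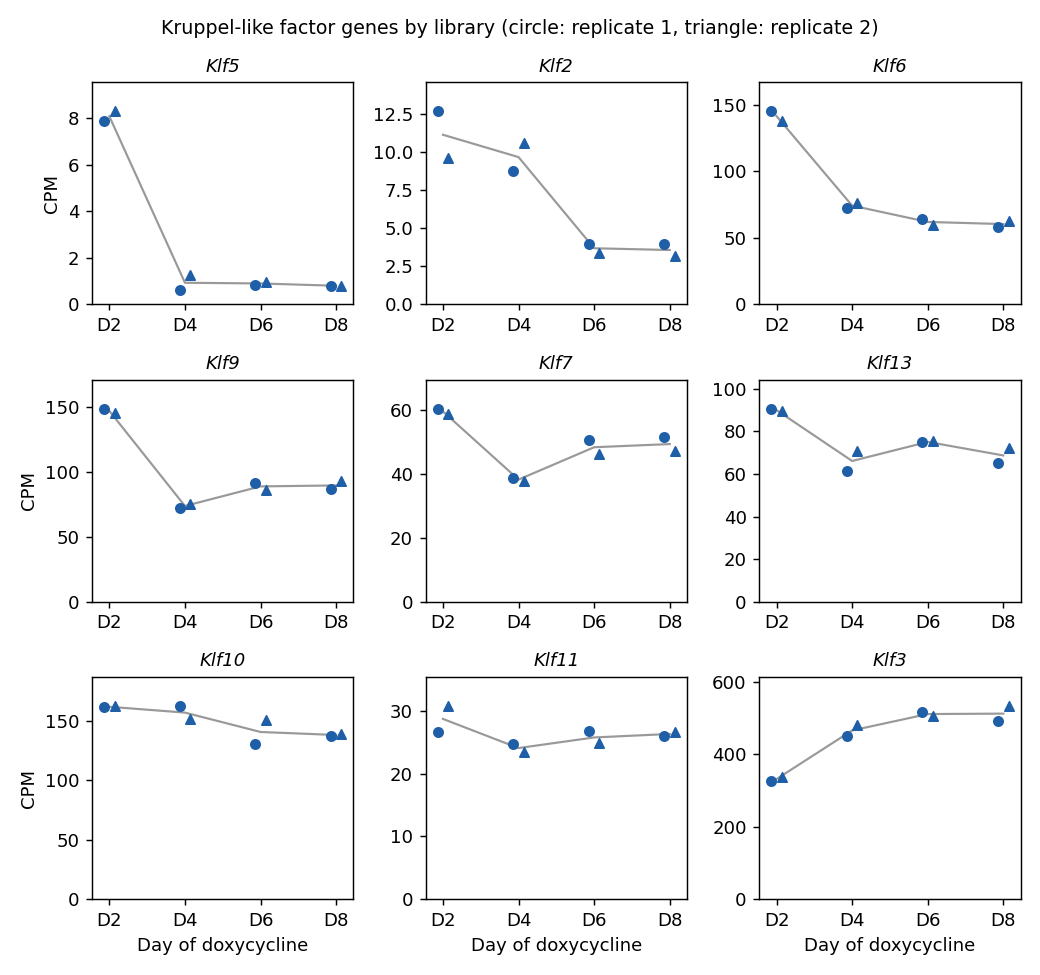
Level in CPM (vertical axes, from 0, each gene on its own scale) on D2, D4, D6 and D8 for the 9 genes, with a circle for replicate 1, a triangle for replicate 2 and a line through the day means. Klf5, Klf6 and Klf9 are lower in both D4 libraries than in both D2 libraries, Klf2 is lower from D6, and Klf3 is higher from D4.

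Most of the movement lay in the first step. In D4 against D2, 6 of the 9 genes were lower and 1 was higher, where 62.5% of all tested genes were called, 21.7% lower and 40.9% higher. The libraries did not overlap for 7 of the 9, against 81.3% of all tested genes. In D6 against D4, 2 were lower and 3 higher, where 37.7% of all tested genes were called, 12.6% lower and 25.2% higher, and 8 of the 9 did not overlap, against 69% of all tested genes. In D8 against D6, 0 were called by limma, and 0 had an unadjusted p under 0.05, where 9.11% of all tested genes were called, 4.39% lower and 4.72% higher. The libraries did not overlap for 2 of the 9, against 55.8% of all tested genes. In D4 against D2, 29.8% of all tested genes were lower and 33.1% higher on the median-of-ratios scale, and 32.3% lower and 28.7% higher on the quantile scale. In D6 against D4 the shares were 19.4% lower and 17.2% higher, and 19.2% lower and 17.5% higher. Of the 9 genes, 7 were lower and 1 higher in D4 against D2 on either scale, and 3 were lower and 2 higher in D6 against D4. In the last step the largest change in either direction was 0.13 on the log2 scale and the smallest adjusted p was 0.26. The median of all tested genes moved by 0.11 in D4 against D2, by 0.07 in D6 against D4 and by 0.17 in D8 against D2. Relative to that median the change in D8 against D2 lay 0.17 lower for each gene, which left Klf3 at 0.46, Klf7 at -0.43, Klf10 at -0.39 and Klf11 at -0.28.

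**Figure D2:**
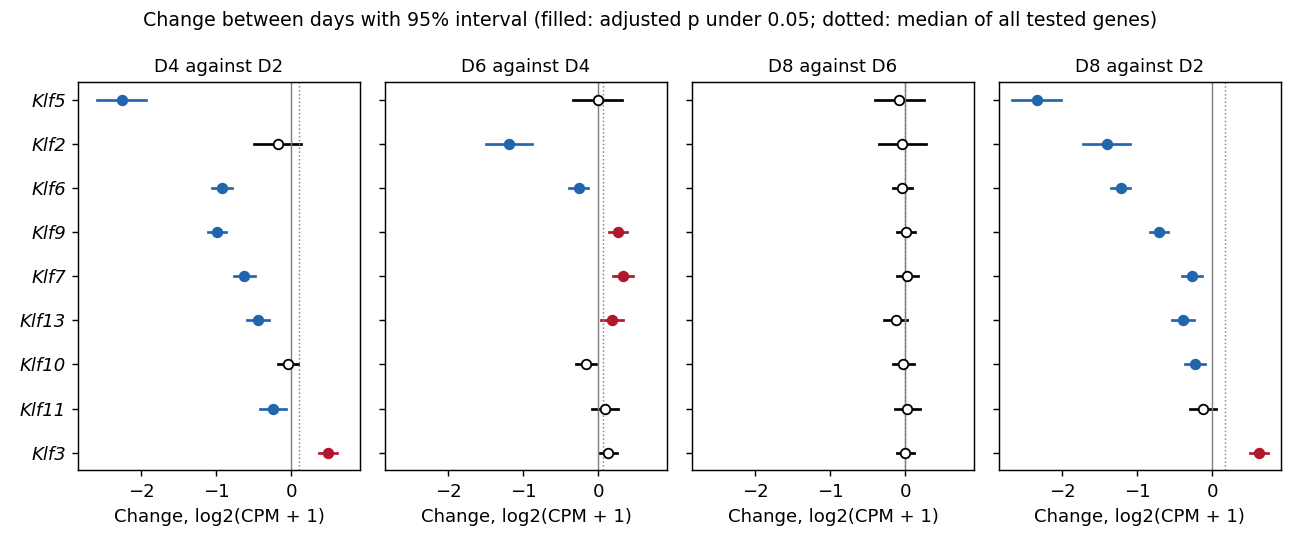
Change between days on the log2(CPM + 1) scale (horizontal axes), with its 95% interval, for the 9 genes in each of the 4 comparisons. Filled points have an adjusted p under 0.05, blue for lower and red for higher, the solid line marks 0 and the dotted line marks the median of all tested genes. The last step, D8 against D6, has no filled point.

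Klf5 encodes a factor of proliferating epithelial and smooth muscle cells that also acts in embryonic stem cells. It had 7.86 and 8.29 CPM in D2, 0.599 and 1.25 CPM in D4, 0.82 and 0.972 CPM in D6, and 0.799 and 0.795 CPM in D8. Both D2 libraries stood above all later libraries, and from D4 on the days were close to each other. Its change in D4 against D2 was -2.26 on the log2 scale (SE 0.15, adjusted p = 3.3e-08), and the mean CPM of D4 was 0.115 times that of D2. In D8 the mean CPM was 10.1-fold below that of D2 (-2.34 on the log2 scale, adjusted p = 1.3e-08). The later values rest on few reads, 12 and 25 in D4, 16 and 19 in D6 and 15.5 in each D8 library, against 158.5 and 166.5 in D2. Counting error alone allows 0.31 to 1.05 CPM for the lowest D4 library and 0.811 to 1.85 CPM for the other (exact Poisson, 95%). Between D6 and D4 no direction could be read (-0.003 on the log2 scale, 95% interval -0.33 to 0.32).

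Klf2, a short-lived factor of endothelial cells and quiescent T cells and part of the naive pluripotency network, fell later. It had 12.7 and 9.61 CPM in D2, 8.79 and 10.6 CPM in D4, 4 and 3.38 CPM in D6, and 3.97 and 3.18 CPM in D8. The D4 libraries overlapped with those of D2, and all 4 libraries of D6 and D8 lay below them. The change in D4 against D2 was -0.18 (95% interval -0.49 to 0.13, adjusted p = 0.3), and that in D6 against D4 was -1.19 (SE 0.14, adjusted p = 4.1e-05). The mean CPM of D6 was 0.381 times that of D4, and in D8 it was 0.32 times that of D2 (-1.4 on the log2 scale, adjusted p = 1.3e-06). Quantile normalization called the first step as well (-0.40, adjusted p = 0.03), while leaving out D2 replicate 1 gave 0.0046. The D2 values rest on 256 and 193 reads, with counting intervals of 11.2 to 14.4 CPM and 8.3 to 11.1 CPM (exact Poisson, 95%).

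Of 10 endothelial markers 6 were tested. In D8 against D2, where 47.3% of all tested genes were higher and 23.1% lower, 4 markers were higher and 2 lower. With D8 replicate 1 left out, 2 markers were higher. Their summed level was 218 to 220 CPM in D2, 284 to 288 CPM in D4, 341 to 342 CPM in D6 and 340 to 348 CPM in D8, and its part in the Klf2 values was not tested. Within this list the levels differed widely. Cdh5, Emcn, Nos3 and Cldn5 were under 1 CPM in every library. Tek, among the 4 higher ones, was at 161.9 ± 1.78 CPM in D8 and 65.3 ± 1.31 CPM in D2. Thbd, also higher, was at 166.6 ± 5.58 CPM in D8 and 106.8 ± 2.15 CPM in D2. The 2 lower ones were S1pr1 and Kdr, with Kdr at 1 ± 0.251 CPM in D8 and 4.32 ± 0.223 CPM in D2. S1pr1, a sphingosine phosphate receptor and a known target of Klf2 in T cells, was at 11.4 ± 0.477 CPM in D8, against 41.7 ± 0.687 CPM in D2 (SD, n = 2 each), and fell by 1.79 on the log2 scale (adjusted p = 8e-11). Of the kinases and MEF2 factors upstream of Klf2 in endothelial cells, 5 of 7 were higher and 1 lower in D8 than in D2. Their median change was 0.2, against 0.17 over all tested genes. The count of higher ones depended on the scaling, with 2 when scaled by median-of-ratios and 3 when scaled by quantiles. On these scales 35.5% and 31.4% of all tested genes were higher. Mef2c, a MADS-box factor, was at 25.8 ± 1.72 CPM in D8 and 11.5 ± 1.16 CPM in D2 (adjusted p = 2.7e-07), and Mapk7, which encodes ERK5, was at 29.2 ± 0.922 CPM in D8 and 38.1 ± 1.44 CPM in D2 (adjusted p = 5.9e-04).

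Klf6, a widely expressed factor induced by injury and growth signals, fell on both of the first steps. It had 145 and 138 CPM in D2, 72.1 and 76.2 CPM in D4, 64 and 59.7 CPM in D6, and 58 and 62.5 CPM in D8. Each D4 library stood below both D2 libraries and each D6 library below both D4 libraries, while D8 and D6 overlapped. The change was -0.92 in D4 against D2 (SE 0.06, adjusted p = 2.3e-08) and -0.26 in D6 against D4 (adjusted p = 0.0044). Over the whole span it was -1.22 (adjusted p = 7.8e-10), a mean CPM in D8 of 0.426 times that of D2.

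Klf9, a gene induced by glucocorticoids and thyroid hormone, fell and then regained part of the loss. It had 149 and 145 CPM in D2, 72.1 and 75.6 CPM in D4, 91.8 and 85.9 CPM in D6, and 86.5 and 92.7 CPM in D8. The D4 libraries were the lowest and the D2 libraries the highest, and D6 and D8 lay between them and overlapped. The change was -0.99 in D4 against D2 (SE 0.06, adjusted p = 6.1e-09) and 0.27 in D6 against D4 (adjusted p = 0.0024). D8 remained below D2 by -0.71 (adjusted p = 8.8e-08). Both steps use the D4 libraries, so a low D4 value enters each of them.

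Other glucocorticoid response genes went in both directions over the span, 3 of 9 tested higher and 3 lower in D8 against D2 (median change 0.13). All tested genes were 47.3% higher and 23.1% lower (median change 0.17). Sgk1, a kinase gene induced by glucocorticoids and serum, was at 27 ± 1.55 CPM in D8 and 83.4 ± 3.76 CPM in D2 (adjusted p = 1.4e-10), and Mt2, a metallothionein gene, was at 130.3 ± 2.36 CPM in D8 and 64.1 ± 0.784 CPM in D2 (adjusted p = 7.6e-09).

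Klf7, known for its part in axon growth, had 60.3 and 58.6 CPM in D2, 38.6 and 37.7 CPM in D4, 50.5 and 46.1 CPM in D6, and 51.3 and 47.2 CPM in D8. Its D4 libraries were the lowest of the 8 and its D2 libraries the highest. The change was -0.63 in D4 against D2 (SE 0.06, adjusted p = 2e-06), 0.33 in D6 against D4 (adjusted p = 0.0014) and -0.27 in D8 against D2 (adjusted p = 0.0021). Relative to the median of all tested genes the last of these was -0.43, and after median-of-ratios scaling it was -0.45. In GENCODE M21, exons of Klf7 share 3196 bases with exons of Gm26649 on the opposite strand, and use of the strand in counting is not given in the sources used here, so reads of this overlap cannot be assigned to one of the genes.

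Klf13, a repressor that works through Sin3 and is best known from T cells, had 90.6 and 89.3 CPM in D2, 61.4 and 70.7 CPM in D4, 74.7 and 75.3 CPM in D6, and 65.2 and 72.1 CPM in D8. Both D2 libraries were above all later ones, and the D4 and D8 libraries overlapped. The change was -0.44 in D4 against D2 (SE 0.07, adjusted p = 8.7e-05) and -0.39 in D8 against D2 (adjusted p = 2.1e-04). The rise in D6 against D4, 0.18 with an adjusted p of 0.0499, kept its call in 5 of 17 alternatives, whose adjusted p ranged from 0.0078 to 0.35. It lost the call without D2 replicate 1 (0.074), D2 replicate 2 (0.074), D4 replicate 1 (0.35, with a change of 0.08), D6 replicate 1 (0.14) or D6 replicate 2 (0.15), and without D4 replicate 2 the change was 0.28.

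Klf10 and Klf11 were first described as genes induced early by TGF-beta, and they moved little. Klf10 had 162 and 163 CPM in D2, 162 and 152 CPM in D4, 131 and 151 CPM in D6, and 138 and 139 CPM in D8. The D4 libraries reached into the D2 range, and both D8 libraries were below all those of D2 and D4. The change of Klf10 was -0.04 in D4 against D2 (95% interval -0.18 to 0.09), -0.16 in D6 against D4 (adjusted p = 0.06) and -0.23 in D8 against D2 (SE 0.06, adjusted p = 0.0053). Leaving out D6 replicate 2 brought the second of these to -0.26 (adjusted p = 0.0074). Median-of-ratios scaling called all 3, at -0.15, -0.24 and -0.42 (adjusted p = 0.0495, 0.0093 and 5.2e-05), and quantile normalization called the second (adjusted p = 0.032) and the third. Relative to the median of all tested genes the third was -0.39 on the deposited scale.

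Klf11 had 26.7 and 30.7 CPM in D2, 24.7 and 23.4 CPM in D4, 26.7 and 24.8 CPM in D6, and 26 and 26.7 CPM in D8. The D4 libraries were the lowest, and the D6 and D8 libraries reached close to the lower D2 library. The change in D4 against D2 was -0.24 (SE 0.08, adjusted p = 0.017), and it lost its call without D2 replicate 2 (-0.14, adjusted p = 0.21) or D4 replicate 2 (-0.20, adjusted p = 0.085), and without a filter on low values (adjusted p = 0.052). Over the whole span, scaling by median-of-ratios or by quantiles called Klf11 lower (-0.30 and -0.34, adjusted p = 0.0034 and 0.0016).

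Most genes of the TGF-beta pathway were lower as well. Of 13 TGF-beta ligand, receptor, Smad and target genes, 9 were lower and 2 higher in D8 than in D2, with a median change of -0.36. Without D2 replicate 1 or D8 replicate 2, 1 was higher. The shares over all tested genes were 23.1% lower and 47.3% higher (median change 0.17). Smad7, the feedback inhibitor of the pathway, was at 9.56 ± 0.47 CPM in D8 and 30.6 ± 1.25 CPM in D2 (adjusted p = 1.9e-09), and the ligand gene Tgfb1 was at 19.5 ± 0.0618 CPM in D8 and 46.1 ± 1.86 CPM in D2 (adjusted p = 6.1e-09; SD, n = 2 each).

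Klf3, a repressor that recruits CtBP and is best known from erythroid, B and fat cells, went the other way. It had 327 and 337 CPM in D2, 451 and 482 CPM in D4, 517 and 506 CPM in D6, and 492 and 533 CPM in D8. Both D2 libraries were the lowest, each D6 library stood above both D4 libraries, and D8 overlapped with D6. The change was 0.49 in D4 against D2 (SE 0.05, adjusted p = 4.1e-06) and 0.62 in D8 against D2 (adjusted p = 2.3e-07), 1.54-fold in mean CPM and 0.46 relative to the median of all tested genes. The step D6 against D4 was 0.13 with an adjusted p of 0.067, which passed the threshold with the replicate number as a block (0.043) and without D4 replicate 2 (0.037), D8 replicate 1 (0.048) or D8 replicate 2 (0.049). The read number of Klf3 was not whole in any library, and its exons share 404 bases with Gm20033 on the opposite strand in GENCODE M21.

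The summed level of the 9 genes was 979 to 981 CPM in D2, 891 to 929.7 CPM in D4, 953 to 961 CPM in D6 and 922 to 977 CPM in D8. Klf3 made up 33.4% and 34.4% of these reads in D2, 50.6% and 51.9% in D4, 53.8% and 53.1% in D6, and 53.4% and 54.6% in D8. It took the larger part from D4 on.

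Per kilobase of exon, the 9 genes together made up 55.8% ± 0.057 of the summed level of all 17 Klf genes in D2, 45.9% ± 0.541 in D4, 37.5% ± 0.116 in D6 and 38.1% ± 0.45 in D8 (SD, n = 2 each). Klf4 made up 36.7% ± 0.186 in D2, 46.6% ± 0.78 in D4, 55.3% ± 0.0535 in D6 and 55.1% ± 0.79 in D8. Which of them was larger in D6 and D8 rests on the length used. With the longest annotated transcript as the length, an alternative chosen after seeing the data, the 9 genes made up 62.6% ± 0.19 in D2, 55.5% ± 0.483 in D4, 47.3% ± 0.096 in D6 and 47.9% ± 0.579 in D8. Klf4 then made up 30.9% ± 0.271 in D2, 38.2% ± 0.65 in D4, 46.3% ± 0.0433 in D6 and 46.1% ± 0.855 in D8. The Klf4 value does not separate the cassette from the cells' own gene, and both lengths are those of the annotated gene. The length of the cassette transcript was not used, so neither set of shares settles which was larger.

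Levels of different genes were compared per kilobase of exon, with exon lengths from GENCODE M21. In D2 the order was Klf10 (38.8 ± 0.163 CPM per kb), Klf6 (32.2 ± 1.17), Klf9 (30.5 ± 0.488), Klf3 (29.5 ± 0.589), Klf13 (11.9 ± 0.12), Klf7 (7.32 ± 0.145), Klf11 (6.61 ± 0.659), Klf2 (6.04 ± 1.18) and Klf5 (1.55 ± 0.0586; SD, n = 2 each). Klf11 and Klf2 overlapped, and the other neighbours did not. In D8 the order was Klf3 (45.6 ± 2.58 CPM per kb), Klf10 (33.1 ± 0.186), Klf9 (18.6 ± 0.915), Klf6 (13.7 ± 0.721), Klf13 (9.12 ± 0.649), Klf11 (6.06 ± 0.112), Klf7 (6.06 ± 0.359), Klf2 (1.93 ± 0.302) and Klf5 (0.153 ± 0.00055). Klf11 and Klf7 overlapped there. Klf6 and Klf9, side by side in D2, exchanged places between D4 and D6. The place of Klf3 in D2 rests on the length used. Its exons add up to 11243 bases, and with the longest annotated transcript, 5221 bases, it was first in D2 as well (63.6 ± 1.27 CPM per kb, ahead of Klf10 at 53.2 ± 0.224).

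**Figure D3:**
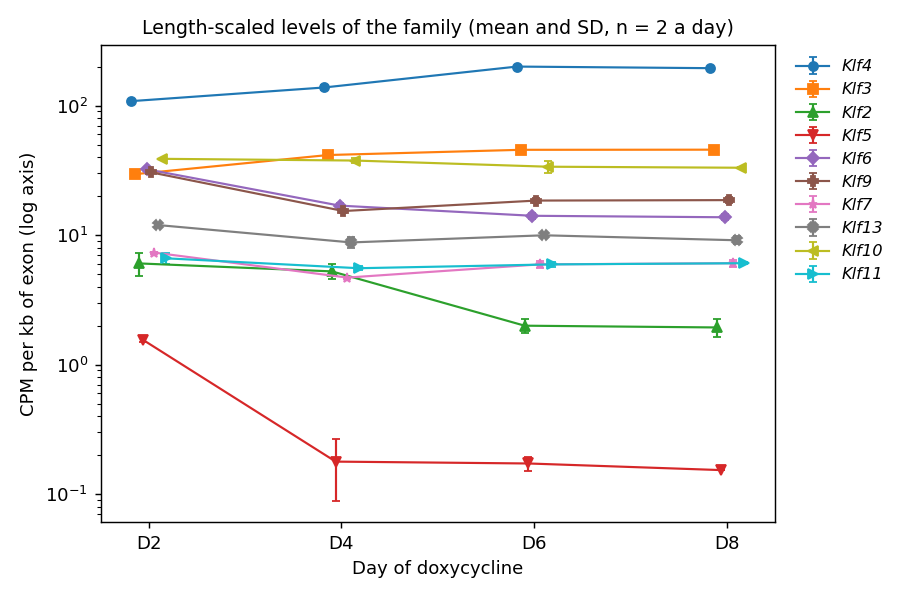
Level per kilobase of exon (log axis, CPM per kb) by day for the 9 genes and Klf4, as the mean with SD of 2 libraries. Klf3 passes Klf10 by D4, Klf6 and Klf9 lie together in D2 and D4, and Klf5 is the lowest on every day.

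Of the family genes outside the 9, 4 of 8 passed the filter. Klf4 had 334 and 326 CPM in D2, 406 and 435 CPM in D4, 608 and 611 CPM in D6, and 590 and 596 CPM in D8 (0.84 in D8 against D2, adjusted p = 4.1e-09), in a value that does not separate the cassette from the cells' own gene. Klf8 and Klf12, which bind CtBP as Klf3 does, were higher in D8, Klf8 at 24.1 ± 1.84 CPM against 11 ± 1.02 CPM in D2 (1.07, adjusted p = 1.8e-07) and Klf12 at 39.5 ± 2.87 CPM against 14.9 ± 0.104 CPM in D2 (1.35, adjusted p = 8e-09). Klf16, a Sin3-binding relative of Klf13, was lower, at 36.1 ± 2.41 CPM in D8 against 47.3 ± 1.05 CPM in D2 (-0.38, adjusted p = 2.5e-04). Of the 4, 3 were higher and 1 lower under median-of-ratios scaling and under quantile normalization too. Among all tested genes 47.3% were higher on the deposited scale, and 35.5% and 31.4% on these 2 scales. The CtBP-binding genes Klf3, Klf8 and Klf12 were thus each higher in D8 than in D2, and Klf9, Klf10, Klf13 and Klf16, which bind Sin3, were each lower, while Klf11, which also binds Sin3, was not called. This grouping was made after the values were seen. Klf1, Klf14, Klf15 and Klf17 stayed at or under 0.3 CPM in every library.

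Of the partner proteins, 9 of 13 corepressor and coactivator genes were higher and 2 lower in D8 against D2 (median change 0.34). After median-of-ratios scaling 5 were higher and 4 lower. Over all tested genes 47.3% were higher and 23.1% lower (median change 0.17), and 35.5% and 34.3% after that scaling. These shares stand beside the other lists of this paragraph too. Sin3a, the scaffold of the Sin3 complex, was at 82 ± 9.3 CPM in D8 and 49.3 ± 1.53 CPM in D2 (adjusted p = 2.5e-06). Kat2b, an acetyltransferase, was at 44.7 ± 0.385 CPM in D8 and 20.5 ± 0.411 CPM in D2 (adjusted p = 3.1e-09). Of the ubiquitin ligases that act on family members, 3 of 6 were higher and 2 lower, with 1 higher and 3 lower after median-of-ratios scaling. Wwp1, which targets Klf2 and Klf5 for degradation, was at 112 ± 2.68 CPM in D8 and 82.8 ± 2.66 CPM in D2 (adjusted p = 3.8e-06), and Smurf1 was at 73.1 ± 2.59 CPM in D8 and 106.1 ± 0.695 CPM in D2 (adjusted p = 7.9e-07). Among the related Sp factors 4 of 6 tested were higher and 1 lower, with 2 higher on the median-of-ratios scale, 1 on the quantile scale, and 2 without D2 replicate 1 or D8 replicate 2. Sp3 was at 145 ± 3.74 CPM in D8 and 85 ± 3.83 CPM in D2 (adjusted p = 1.3e-08).

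The naive pluripotency network, in which Klf2 and Klf5 act, was mostly below the filter, with 5 of 14 genes tested. In D8 against D2, 3 were higher and 2 lower, and 1 was higher after median-of-ratios scaling. Beside this and the lists that follow, 47.3% of all tested genes were higher and 23.1% lower. Tfcp2l1, a factor of that network, was at 8.02 ± 0.306 CPM in D8 and 0.351 ± 0.0643 CPM in D2 (adjusted p = 1.2e-09), and Tbx3 at 9.58 ± 0.289 CPM in D8 and 20.9 ± 1.68 CPM in D2 (adjusted p = 3.1e-07). Of the fat cell genes, in whose control Klf2, Klf3 and Klf5 take part, 1 of 7 tested was higher and 3 were lower. After median-of-ratios scaling 4 were lower and after quantile normalization 5, where 34.3% and 38.3% of all tested genes were lower. Among the lower ones on the deposited scale was Cebpb, at 38.5 ± 5.87 CPM in D8 and 57.2 ± 0.343 CPM in D2 (adjusted p = 3.1e-05). Of 10 epithelial markers 5 were tested, and 4 were higher and 1 lower in D8 than in D2. The sum of the list was 38.6 to 41.4 CPM in D2, 47.6 to 57.5 CPM in D4, 119 to 146 CPM in D6 and 171 to 180 CPM in D8. Most of this rise was that of Krt8, at 125 ± 13 CPM in D8 and 2.4 ± 0.336 CPM in D2, whose read number was not whole in any library. Krt19, the lower one, was at 4.14 ± 0.705 CPM in D8 and 31.1 ± 0.367 CPM in D2. Epcam, Krt18, Cldn7, Grhl2 and Esrp1 were under 1 CPM in every library. Summed macrophage markers stood at 69.6 to 96.5 CPM in D2, 95.1 to 99.3 CPM in D4, 93 to 103 CPM in D6 and 74.3 to 85 CPM in D8, and summed erythroid markers at 0.62 to 2.92 CPM over all libraries. Whether other cell types contributed to the changes of the 9 genes was not tested.

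The genes most like a member were sought for Klf2, Klf5 and Klf6, whose day means spanned at least 1 on the log2 scale, by the root mean square difference between centred log2(CPM + 1) values over the 8 libraries. For Klf5 they were Klhl30 (0.139), the lymphatic growth factor receptor gene Flt4 (0.145) and the Myc family gene Mycl (0.149), and Mycl stood at 4.65, 0.30, 0.307 and 0.206 CPM in D2, D4, D6 and D8. For Klf2 they were the orphan nuclear receptor gene Nr4a1 (0.163), Tmem200a (0.164) and the cathepsin C gene Ctsc (0.187), and Nr4a1 stood at 134, 93, 47.6 and 41.8 CPM. For Klf6 they were Cdh2, which encodes N-cadherin (0.0562), Galnt14 (0.0563) and the reticulon gene Rtn4 (0.0567), and Cdh2 stood at 203, 106, 95.4 and 84.4 CPM. Galnt14 stood at 2.21, 0.726, 0.358 and 0.437 CPM, so low that the log2(CPM + 1) scale understates its fall. The same holds for Mycl, at 0.206 to 0.307 CPM from D4 on, and its likeness to Klf5 depends on that scale. These distances describe 8 libraries that share their days and scaling.

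**Figure D4:**
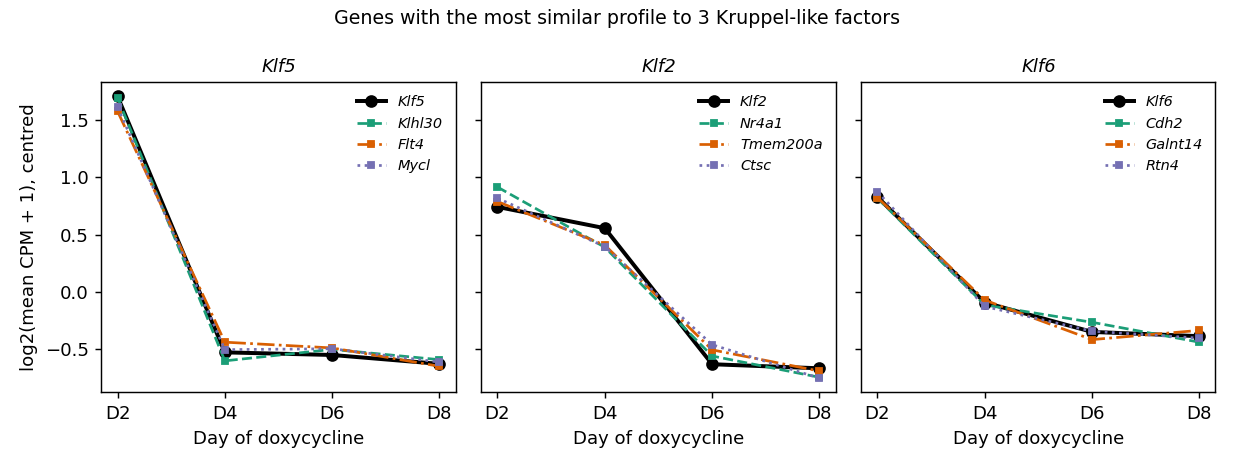
Centred log2(mean CPM + 1) by day (vertical axis) for Klf5, Klf2 and Klf6 in black, each with the 3 tested genes of the smallest root mean square difference. The Klf5 group drops by D4 and stays low, the Klf2 group has its largest drop between D4 and D6, and the Klf6 group drops by D4 and again slightly by D6.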

How the data were processed

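Per the labels' protocols, RNA came from a TRIzol extraction and the libraries were run on a BGISEQ-500. The submitters' processing notes name Trimmomatic 0.39, featureCounts and the build mm10, and neither aligner nor annotation nor strand setting is stated there. The deposited values are CPM: each column sums to 1000000 and its values are multiples of a step common to all genes, although the table is named for TPM. The design was written for such normalized values and used unchanged. Symbols and lengths came from GENCODE M21 (32029 of 32108 genes), and 0 columns belonged to no sample.

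The test, limma 3.58.1 under R 4.3.3, ran on log2(CPM + 1) for genes that reached 1 CPM in 2 or more libraries (a coefficient per day, eBayes with trend, 4 residual degrees of freedom), two-sided, with Benjamini-Hochberg adjustment across the genes tested and calls under 0.05. The fit was tested on simulated data. Folds are ratios of mean CPM, and changes on the log2(CPM + 1) scale understate low genes. Intervals are 95%, and floors and Poisson intervals cover counting error only. The members and lists were chosen with earlier results of these data known. All 9 members are named, with Klf4 and up to 4 called genes per other list by size of change in D8 against D2, and the 3 genes most alike for members that differ between days with a span of at least 1. Alternatives were other pseudocounts, filters, scalings and fits, a replicate block and leaving out each library. Python 3.11.15 with pandas 2.3.3 and matplotlib 3.10.9 made the summaries and figures.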

Additional observations from a re-analysis of the deposited data

How the results depend on the processing

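Of 20 changes of members called between days, 18 kept direction and call under all 17 alternatives, and the exceptions were Klf13 in D6 against D4 and Klf11 in D4 against D2. Of 16 changes not called, 5 were called under at least 1 alternative. The counts of members called stayed within 1.5 times in every alternative. The count of all genes called in D8 against D6 was 1399, with 344 without a filter on low values, 533 without an intensity trend and 398 to 1743 when 1 library was left out, and the cause was not tested. Signs changed only for uncalled values. Klf5 in D6 against D4 became 0.030 with a pseudocount of 0.1 and Klf3 in D8 against D6 became -0.0063 after quantile normalization. Leaving out 1 library gave ranges of -0.36 to 0.0046 for Klf2 and -0.092 to 0.0023 for Klf10 in D4 against D2, and -0.25 to 0.24 for Klf5 in D6 against D4. In D8 against D6 it gave -0.16 to 0.087 for Klf2, -0.055 to 0.060 for Klf3, -0.090 to 0.015 for Klf6, -0.036 to 0.093 for Klf7, -0.038 to 0.061 for Klf9, -0.12 to 0.079 for Klf10 and -0.021 to 0.081 for Klf11. A pseudocount of 5 gave Klf5 -1.17 and Klf2 -0.91 in D8 against D2. The replicate numbers are shared between days, and the deviations of same-numbered libraries correlated at -0.10 to 0.21 over the pairs of days. Low correlations cannot exclude a shared culture or batch, so they do not settle whether the numbers pair the libraries. With the replicate block 9753 genes were called in D4 against D2, against 9606 without it, and of the members only Klf3 in D6 against D4 changed its call (0.13, adjusted p = 0.043). Fitting only the 2 days compared gives no F test over days. Depth limits Klf5 from D4 on.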
